A study of Mus musculus with 8 samples.

Results

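CD antigens are cell surface molecules that carry a cluster of differentiation number because antibodies to them sort leukocytes into kinds. The 43 genes described here were chosen by name alone: protein-coding genes of the deposited table whose symbol is Cd followed by a number, with or without 1 letter, or begins with Cd300. The table held 13388 genes, 48 symbols met the pattern, and Cd14, Cd22, Cd36, Cd74 and Cd163 were left aside, which makes 5. No measured value was a criterion of the choice, though earlier results of these data were known when it was made. All 43 genes passed the filter on low values, a level of 1 CPM (reads of a gene divided by the library's size) or more in 2 libraries or more. Many surface molecules known by a CD number have another gene symbol and are outside this set.

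The series measured RNA by sequencing in 8 libraries of 4 groups, with 2 libraries in each. Ly6C+ classical monocytes and cMoPs, the common monocyte progenitors from which monocytes arise, were sorted from bone marrow of wild-type mice. Each cell type was cultured for 6 h with stromal cells of the mouse line OP9 or of OP9-DLL1, which is OP9 made to display the Notch ligand DLL1. The groups are thus monocytes on OP9, monocytes on OP9-DLL1, cMoPs on OP9 and cMoPs on OP9-DLL1, and every group was in contact with stroma. The labels do not say whether stroma was removed before RNA isolation, and they number the replicates without naming separate mice or cultures. The p-values therefore cover the spread among these libraries alone, part or all of which may be technical. The title names Bcl6, Irf2 and Notch2 as factors of nonclassical monocyte development, and the comparison of stromas addresses how the cells answer a Notch ligand.

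As background, the CD antigens of monocytes fall into families with distinct work. Tetraspanins organise other membrane proteins into patches and route them through endosomes. CD300 receptors are immunoglobulin-like receptors for lipids, found as inhibitory and activating members side by side, and SLAM receptors bind other SLAM family molecules on neighbouring cells. B7 and TNF family molecules such as CD80, CD86 and CD40 pass signals between antigen-presenting cells and T cells. When DLL1 binds a Notch receptor, the freed receptor domain joins the DNA-binding protein RBPJ at target genes. RNA was measured here, and surface protein was not.

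Depth was 47316323 to 62459962 reads per library, at which 1 read corresponded to 0.0151 to 0.0231 CPM. Replicates were compared by the number of genes over 2-fold apart, which was 1445 in monocytes on OP9 and 724 to 804 in the other groups. The labelled cell types had different marker levels: 5 measured progenitor genes (Kit, Mpo, Elane, Prtn3 and Cd34) summed to 13470 to 20170 CPM in cMoPs and 158 to 275 CPM in monocytes. Csf1r, Ly6c2, Ccr2, Cx3cr1 and Itgam summed to 3250 to 3710 CPM in monocytes and 2583 to 3049 CPM in cMoPs. These 5 genes went both ways: on each stroma Csf1r, Ccr2 and Itgam were called lower in cMoPs. Called higher in cMoPs were Ly6c2 (872 to 1204 CPM in monocytes, 2065 to 2314 in cMoPs) and Cx3cr1 (2.03 to 2.49 and 8.76 to 15.4 CPM). For 6 neutrophil genes of 7 listed, sums were 1314 to 2249 CPM in monocytes and 434 to 514 CPM in cMoPs. Mmp8 made most of that gap (534 to 1520 against 6.70 to 15.8 CPM), and S100a8 overlapped between the cell types (251 to 347 against 242 to 375 CPM). Of 14 stromal genes 6 were measured, with sums in CPM of 20.2 and 22.9 for monocytes on OP9, of 6.24 and 18.5 for those on OP9-DLL1, and of 2.40 to 5.85 for the cMoP libraries, and none of the 6 had 0 reads in both libraries of a group. Of 8 T and NK cell genes Lck and Nkg7 were measured, with sums of 1.25 to 2.21 CPM in monocytes and 179 to 322 CPM in cMoPs. Nkg7 made nearly all of the sum in cMoPs (178 to 321 CPM). Lck had 0.334 to 1.71 CPM there and was not called between the cell types. Of 6 B cell genes only Cd79b, itself 1 of the 43, was measured. In bulk RNA, fewer cells of a type and less RNA per cell cannot be told apart.

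Stretches upstream of 3 of the genes are shown because Cd244a and Cd300a were higher on OP9-DLL1 and hold the letters of the RBPJ core motif, while Cd300e was higher in monocytes and does not hold them. They are the 250 bases before the RefSeq transcript start on GRCm38.p6, read 5′ to 3′ on the gene's strand, with the motif TGGGAA or its reverse complement TTCCCA in capitals.
Cd244a (chr1:171558943-171559192, plus strand): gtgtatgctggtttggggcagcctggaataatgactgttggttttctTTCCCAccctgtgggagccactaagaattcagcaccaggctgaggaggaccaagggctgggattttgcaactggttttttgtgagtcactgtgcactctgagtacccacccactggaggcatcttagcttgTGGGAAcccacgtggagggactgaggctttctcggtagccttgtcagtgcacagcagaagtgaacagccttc
Cd300a (chr11:114889791-114890040, plus strand): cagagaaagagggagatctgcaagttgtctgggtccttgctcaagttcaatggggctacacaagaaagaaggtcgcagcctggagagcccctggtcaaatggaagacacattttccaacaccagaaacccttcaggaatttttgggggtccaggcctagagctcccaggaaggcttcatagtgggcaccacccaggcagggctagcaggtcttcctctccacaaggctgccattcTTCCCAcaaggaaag
Cd300e (chr11:115062040-115062289, minus strand): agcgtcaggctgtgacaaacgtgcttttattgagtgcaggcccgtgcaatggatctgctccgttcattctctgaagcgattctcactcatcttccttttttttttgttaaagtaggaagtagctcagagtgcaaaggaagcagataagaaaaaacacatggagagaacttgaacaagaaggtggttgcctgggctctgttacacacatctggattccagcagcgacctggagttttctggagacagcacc
In Cd244a the copies begin 203 and 72 bases before the start, and in Cd300a 15 bases before it. A RefSeq window was at hand for 32 of the 43 genes, and 12 of the 32 (37.5%) held the motif on either strand. Among all genes with such windows 24.089% held it (21.594% of all windows). Of the 6 genes that rose in monocytes on OP9-DLL1, described next, 2 held it, and of the 2 that fell 1 did (Cd63, 126 bases before the start). A match of 6 letters is a description of the sequence, not a binding site.

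On OP9-DLL1, monocytes had more RNA of the SLAM receptor gene Cd244a, the CD300 receptor genes Cd300a and Cd300e, the tetraspanin Cd82, the sialic acid lectin Cd33 and the C-type lectin Cd302, and less of the tetraspanins Cd63 and Cd37. These 8 of 43 genes passed at an adjusted p under 0.05 (limma-trend with Benjamini-Hochberg adjustment over all 13374 genes tested), 6 higher (14.0%) and 2 lower (4.65%). Over all genes 3.36% were called higher and 3.03% lower, so the share called higher was above the background among these genes and the share called lower was near it. The median log2 fold change was 0.19 for the 43 genes and 0.01 for all genes. At an unadjusted p under 0.05, 12 were higher and 5 lower. The share of all genes at that threshold was not computed, so neither these nor the later unadjusted counts have a background to set them against. Only Cd244a passed in every alternative setting. Without either OP9-DLL1 monocyte library most of the calls ended, among the 43 genes and over all genes. Without either OP9 monocyte library more genes passed, again among the 43 and over all genes. Such fits leave 1 library in a group. With the libraries centred on their medians the same count of 6 higher and 2 lower stood among the 43, while the calls over all genes went from 450 higher and 405 lower to 364 and 526.

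**Figure D1:**
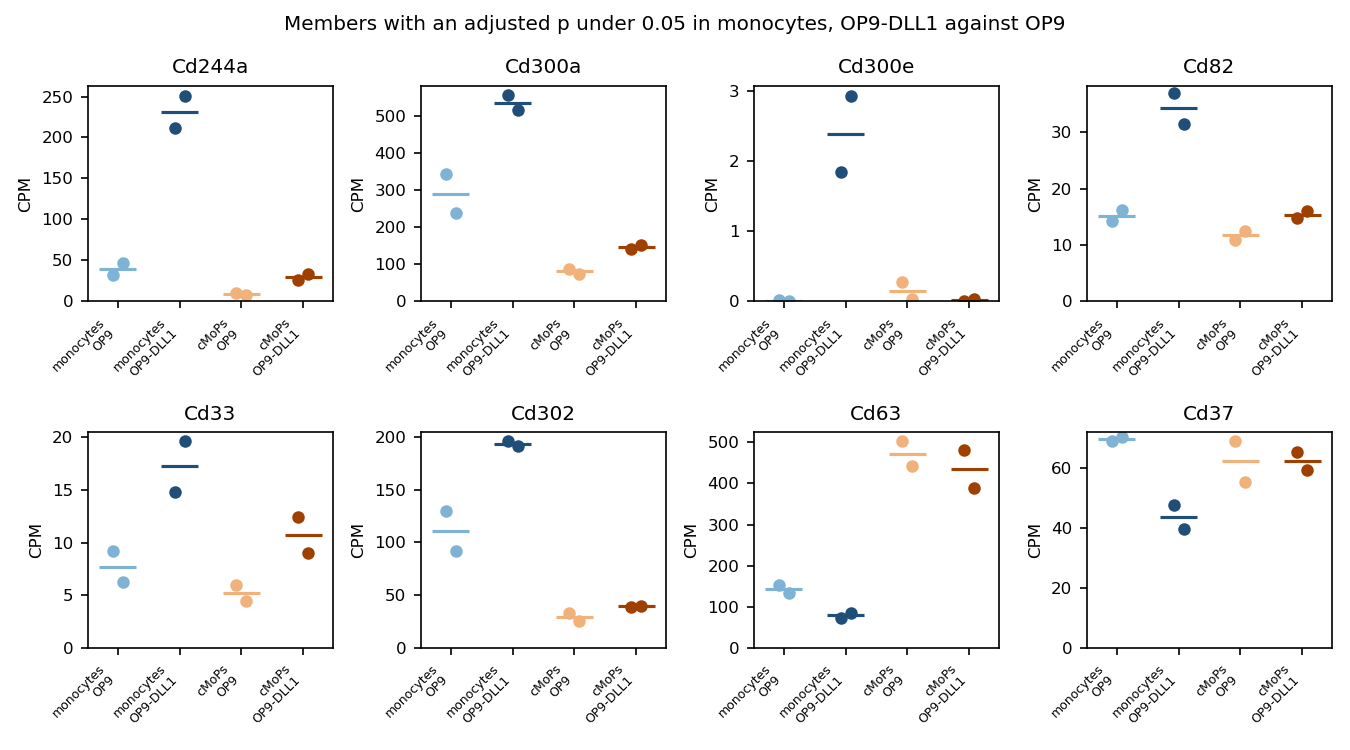
CPM (linear axis from 0) of the 8 genes that passed in monocytes. Each point is 1 library, each horizontal line the mean of 2 libraries, and colours give the 4 groups on the x axis. Cd244a in monocytes on OP9-DLL1 (212 and 251 CPM) lies far above the other groups, and Cd63 is highest in cMoPs.

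Among SLAM family genes, Cd244a (chromosome 1, 171559193 to 171609746), whose receptor binds CD48, stood in monocytes at 32.0 and 46.8 CPM on OP9 and at 212 and 251 CPM on OP9-DLL1. Both OP9-DLL1 libraries were far above both OP9 libraries, which is a log2 fold change of 2.57 ± 0.21 (SE, n = 2 libraries per group, adjusted p = 0.00049). Leaving out 1 library at a time gave an adjusted p of at most 0.0126. In cMoPs the same gene had 9.95 and 8.30 CPM on OP9 and 25.9 and 33.8 CPM on OP9-DLL1, and the groups again did not overlap. That rise (log2 1.70 ± 0.21, adjusted p = 0.0082) did not pass without OP9 cMoP replicate 2 or OP9-DLL1 cMoP replicate 2, where the adjusted p reached 0.10, nor without the mean-variance trend. With the ligand, cMoPs thus came near the level of monocytes without it (29.9 ± 5.58 and 39.4 ± 10.5 CPM, SD). The difference between the 2 responses was -0.87 ± 0.30 on the log2 scale (cMoPs minus monocytes) and did not pass (adjusted p = 0.40). Without OP9 monocyte replicate 2 it was -1.15 ± 0.25 and passed (adjusted p = 0.028), with the lone OP9 monocyte library assumed to vary as the others do.

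Cd48 (chromosome 1, 171682009 to 171705258), which encodes the ligand of CD244, had 235 and 256 CPM in monocytes on OP9 and 309 and 337 CPM on OP9-DLL1 (log2 fold change 0.40 ± 0.11, adjusted p = 0.061). In cMoPs it had 298 ± 4.19 and 335 ± 16.4 CPM (log2 0.17 ± 0.11, adjusted p = 0.71). Cd84, a SLAM receptor that binds itself, was at 190.5 ± 4.03 and 132 ± 12.5 CPM in monocytes (log2 -0.53 ± 0.16, adjusted p = 0.089) and did not pass in cMoPs (-0.48 ± 0.16). So of the 3 SLAM family genes limma-trend called 1 higher and 0 lower in each cell type. In monocytes voom called 1 higher and 1 lower, the latter Cd84 (adjusted p = 0.047, and 0.047 with the replicate number as a block, against 0.056 to 0.41 in its other alternatives). An unadjusted p was under 0.05 for 2 higher and 1 lower in monocytes and for 1 of each in cMoPs. The 5 other measured SLAM receptor genes gave no call in either cell type (at an unadjusted p under 0.05, 0 in monocytes, and 1 higher and 1 lower in cMoPs). Of 11 measured adaptor and phosphatase genes that act below CD300 and SLAM receptors, 2 rose and 0 fell in monocytes, and 1 rose and 0 fell in cMoPs. Sh2d1b1, an adaptor of SLAM receptors including CD244, rose in monocytes from 19.7 ± 8.61 to 41.6 ± 0.714 CPM (log2 1.15 ± 0.26, adjusted p = 0.037). In cMoPs it rose from 5.56 ± 0.639 to 15.9 ± 0.063 CPM (log2 1.51 ± 0.26, adjusted p = 0.037).

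The CD300 receptors are encoded on chromosome 11, where Cd300a, Cd300lb, Cd300ld, Cd300c2, Cd300e and Cd300lf lie in this order within 244 kb (114890041 to 115133992) and Cd300lg lies apart from them (102041509 to 102055620). Neighbouring members are alike in sequence and may share reads, so their values are uncertain to that extent. Of the 7 genes 2 rose and 0 fell in monocytes, and none was called in cMoPs (an unadjusted p was under 0.05 for 2 higher and 1 lower, and voom on the recovered reads called 0). Cd300a, an inhibitory receptor for phospholipids of dying cells, had 344 and 238 CPM in monocytes on OP9 and 558 and 516 CPM on OP9-DLL1. The groups did not overlap (log2 0.91 ± 0.17, adjusted p = 0.017), and the call ended without either OP9-DLL1 library (adjusted p up to 0.106). In cMoPs Cd300a had 88.9 and 74.6 CPM on OP9 and 142 and 152 CPM on OP9-DLL1, a change of similar size (log2 0.85 ± 0.17) that did not pass here (adjusted p = 0.071) and had an adjusted p of 0.0072 in the authors' deposited table.

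Cd300e, an activating receptor of monocytes, gave 1 and 0 reads in the 2 libraries of monocytes on OP9 and 90 and 151 reads on OP9-DLL1 (1.85 and 2.93 CPM). Only those OP9-DLL1 libraries reached 1 CPM, so Cd300e passed the filter on low values through the group where it was high. The ratio of summed reads, scaled to library size, was 233 (95% counting interval 41.5 to 9260, exact binomial, counting error only). It passed the test (adjusted p = 0.042), though not without either OP9-DLL1 library, and had an adjusted p of 0.053 in the authors' deposited table. In cMoPs the reads were 18 and 2 on OP9 and 0 and 2 on OP9-DLL1. There it was 9.61 times lower on OP9-DLL1 by summed reads (interval 2.33 to 84.8), most of it from 1 OP9 library, and the fit gave no call (adjusted p = 0.72). The fitted difference between responses did not pass either (adjusted p = 0.25).

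Among the other CD300 genes, the inhibitory receptor Cd300lf had 43.2 and 29.7 CPM in cMoPs on OP9 and 80.3 and 74.5 CPM on OP9-DLL1 (log2 fold change 1.11 ± 0.23, adjusted p = 0.081, against 0.0117 in the authors' deposited table). In monocytes it had 232 and 143 CPM against 260 and 242 CPM (log2 0.46 ± 0.23, adjusted p = 0.29). The activating receptor genes Cd300lb, Cd300ld and Cd300c2 had log2 fold changes of -0.08, 0.31 and 0.41 in monocytes and -0.21, -0.48 and 0.32 in cMoPs, none of which passed. Cd300lg, found mostly on endothelium, stood at 4.64 ± 0.691 to 6.74 ± 0.226 CPM in monocytes and near 2 CPM in cMoPs, with no call for the ligand.

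Tetraspanins gave calls in both directions in monocytes, 1 higher and 2 lower of 7, and none in cMoPs (an unadjusted p was under 0.05 for 1 higher and 0 lower, and voom called 0). Cd82 (chromosome 2, 93419111 to 93463140), which restrains migration and integrin signalling, had 14.3 and 16.2 CPM in monocytes on OP9 and 37.0 and 31.6 CPM on OP9-DLL1 (log2 fold change 1.17 ± 0.17, adjusted p = 0.0052), and without OP9-DLL1 monocyte replicate 1 the adjusted p was 0.051. In cMoPs it was at 11.7 ± 1.09 and 15.4 ± 0.866 CPM (log2 0.40 ± 0.17, adjusted p = 0.48). Cd63 (chromosome 10, 128900989 to 128912822), a tetraspanin of lysosomes and exosomes, had 154 and 133 CPM in monocytes on OP9 and 73.9 and 85.4 CPM on OP9-DLL1. It fell by 0.85 on the log2 scale (SE 0.15, adjusted p = 0.012). In cMoPs its level was several times that of monocytes and gave no call (472 ± 43.1 and 435 ± 65.0 CPM, log2 -0.12 ± 0.15, adjusted p = 0.89). Stromal cells are known to express Cd63 too. The summed level of the 6 stromal genes in monocytes was 20.2 and 22.9 CPM on OP9 against 6.24 and 18.5 CPM on OP9-DLL1. Its members differed, with a median log2 fold change of -2.15. Limma-trend called Pdgfrb higher on OP9-DLL1 (0.0231 and 0.205 against 2.89 and 4.23 CPM) and 0 of the 6 lower. Vcam1 stayed between 1.90 and 2.08 CPM. The other members had less RNA on OP9-DLL1 without overlap. Sparc had 7.16 and 10.3 against 1.15 and 6.56 CPM, and Cxcl12 6.30 and 5.97 against 0.0616 and 3.36 CPM. Col1a2 had 3.23 and 2.64 against 0.0205 and 1.55 CPM, and Col1a1 1.43 and 1.84 against 0.0616 and 0.912 CPM. The part of stroma in the fall of Cd63 was not tested.

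Cd37, a tetraspanin largely restricted to leukocytes, had 69.1 and 70.2 CPM in monocytes on OP9 and 47.7 and 39.8 CPM on OP9-DLL1, with the replicates on OP9 almost equal. It fell by 0.68 on the log2 scale (SE 0.15, adjusted p = 0.033), against an adjusted p of 0.070 in the authors' deposited table. In cMoPs its level was 62.2 ± 9.73 and 62.3 ± 4.36 CPM. Both falls ended as calls without either OP9-DLL1 monocyte library, Cd63 at an adjusted p of up to 0.0888 and Cd37 of up to 0.234. The leukocyte tetraspanin Cd53, Cd81 (a partner of integrins), Cd9 and the integrin partner Cd151 had log2 fold changes between -0.36 and 0.42 in monocytes and between -0.33 and 0.15 in cMoPs, none of them called. There were 9 measured tetraspanin genes with other names, of which 1 rose and 1 fell in monocytes. Tspan13 rose from 9.41 ± 0.344 to 112 ± 40.2 CPM (log2 3.53 ± 0.23, adjusted p = 0.00014) and Tspan4 fell from 16.4 ± 0.827 to 10.4 ± 0.66 CPM (log2 -0.65 ± 0.14, adjusted p = 0.027). In cMoPs Tspan13 was the 1 call (4.04 ± 0.34 to 15.99 ± 0.68 CPM, log2 1.99 ± 0.23, adjusted p = 0.0055).

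**Figure D2:**
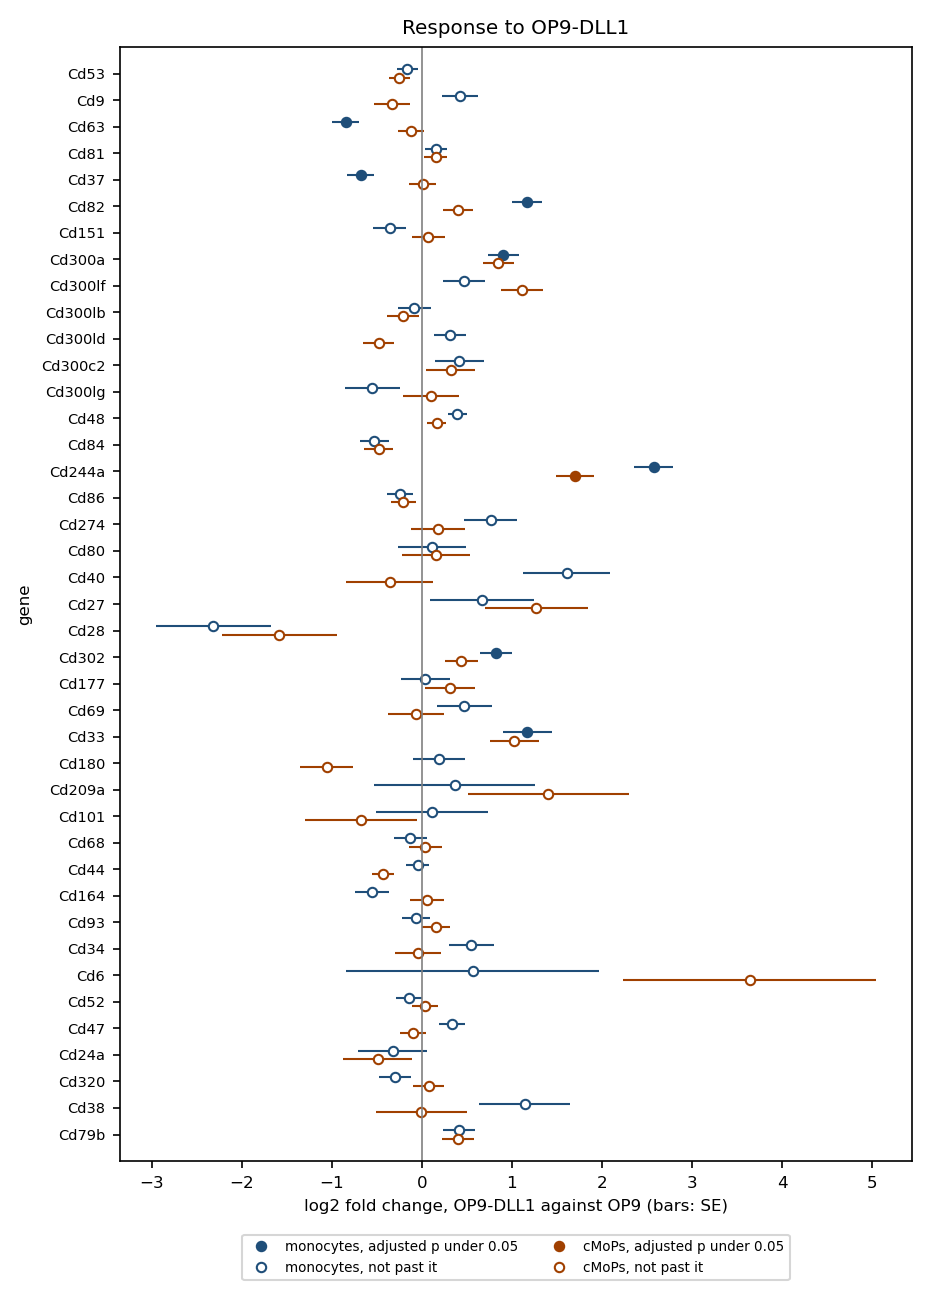
Log2 fold change on OP9-DLL1 against OP9 (x axis, bars are SE) for 41 of the genes, in blue for monocytes and brown for cMoPs, with filled points where the adjusted p is under 0.05. Cd300e and Cd83 are not drawn because groups with 0 or few reads leave their fitted values uncertain. Cd244a is filled for both cell types (2.57 and 1.70), and no other gene is filled for cMoPs.

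Of 7 lectins and innate receptors 2 rose and 0 fell in monocytes, and none was called in cMoPs (an unadjusted p was under 0.05 for 2 higher and 1 lower, and voom called 0). Cd302, an endocytic C-type lectin, had in monocytes 130 and 92.0 CPM on OP9 and 196 and 191 CPM on OP9-DLL1 (log2 fold change 0.82 ± 0.18, adjusted p = 0.031). Cd33, a sialic acid binding receptor of myeloid cells, had in monocytes 9.21 and 6.23 CPM on OP9 and 14.8 and 19.7 CPM on OP9-DLL1 (log2 fold change 1.17 ± 0.28, adjusted p = 0.040). The groups did not overlap for either gene, and both calls ended without either OP9-DLL1 library (adjusted p up to 0.165 for Cd302 and 0.261 for Cd33). Cd33 also lost it without OP9 replicate 2, and had an adjusted p of 0.075 in the authors' deposited table. In cMoPs Cd33 had 6.01 and 4.49 CPM on OP9 and 12.4 and 9.06 CPM on OP9-DLL1 (log2 fold change 1.03 ± 0.28, adjusted p = 0.19), and Cd302 had a log2 fold change of 0.44 ± 0.18 (adjusted p = 0.48). Cd180, a Toll-like receptor homologue without a signalling tail, had 9.10 and 9.47 CPM in cMoPs on OP9 and 5.13 and 3.88 CPM on OP9-DLL1 (log2 fold change -1.06 ± 0.29, adjusted p = 0.21, against 0.042 in the authors' deposited table). Cd177, a surface protein of neutrophils, the activation antigen Cd69, the DC-SIGN homologue Cd209a and Cd101 gave no call for the ligand in either cell type. Replicates of Cd209a stood far apart, with 4.19 and 27.5 CPM in monocytes on OP9-DLL1.

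None of the 7 costimulation genes passed for the ligand in either cell type by limma-trend. At an unadjusted p under 0.05, 2 were higher and 1 lower in monocytes and 0 higher and 1 lower in cMoPs, and voom called 1 (Cd40) higher in monocytes. Cd40, the receptor for T cell help, had 4.73 and 3.48 CPM in monocytes on OP9 and 10.5 and 14.7 CPM on OP9-DLL1. The groups did not overlap and the log2 fold change was 1.61 ± 0.48, with an adjusted p of 0.086 here and 0.027 in the authors' deposited table. Cd274, which encodes the inhibitory ligand PD-L1, had 14.6 and 17.1 CPM against 34.6 and 20.8 CPM (log2 0.76 ± 0.30, adjusted p = 0.18). The B7 genes Cd86 (218 ± 11.5 and 185 ± 30.4 CPM) and Cd80 (14.7 ± 5.05 and 15.5 ± 1.05 CPM) had log2 fold changes of -0.24 and 0.12. Cd28, the T cell receptor for both B7 molecules, had 0.554 and 0.632 CPM against 0.0616 and 0.194 CPM (log2 -2.32 ± 0.64, adjusted p = 0.066), and the TNF receptor gene Cd27 stood at 1.14 ± 0.628 and 1.76 ± 0.805 CPM. Cd83, a marker of mature dendritic cells, had 115 and 49 reads in monocytes on OP9 and 91 and 41 reads on OP9-DLL1. Of 10 measured B7 and TNF family partners 2 rose and 1 fell in monocytes, and none passed in cMoPs (an unadjusted p was under 0.05 for 2 higher and 2 lower). Icosl, a B7 family ligand, rose from 15.2 ± 0.07 to 27.1 ± 0.367 CPM (log2 0.83 ± 0.19, adjusted p = 0.034). The inhibitory receptor gene Havcr2 rose from 7.43 ± 2.18 to 35.5 ± 3.96 CPM (log2 2.28 ± 0.54, adjusted p = 0.041). The 4-1BB ligand gene Tnfsf9 fell from 23.3 ± 2.71 to 11.6 ± 0.908 CPM (log2 -1.0025 ± 0.21, adjusted p = 0.028).

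Sialomucins and adhesion molecules, self recognition molecules, ectoenzyme and transport molecules and Cd79b, 12 genes in all, gave no call for the ligand by limma-trend or voom. At an unadjusted p under 0.05, 3 of them were higher and 1 lower in monocytes, and 2 higher and 1 lower in cMoPs. Cd44, the hyaluronan receptor, had 429 and 526 CPM in monocytes on OP9 and 493 and 429 CPM on OP9-DLL1, so the groups overlapped. In cMoPs its libraries did not overlap, with 298 and 296 CPM on OP9 and 226 and 215 CPM on OP9-DLL1 (log2 fold change -0.43 ± 0.13, adjusted p = 0.24). The macrophage sialomucin Cd68, the lymphocyte and monocyte antigen Cd52, the do-not-eat-me signal Cd47 and the endothelial and progenitor lectin-like protein Cd93 had log2 fold changes between -0.14 and 0.34 in monocytes and between -0.09 and 0.16 in cMoPs. The progenitor sialomucin Cd34 had log2 fold changes of 0.55 ± 0.25 in monocytes (adjusted p = 0.24) and -0.04 ± 0.25 in cMoPs. The sialomucin Cd164 (-0.55 ± 0.19 in monocytes, adjusted p = 0.12) and Cd24a, a sialylated glycoprotein that binds Siglecs (-0.32 ± 0.38), did not pass, and replicates of Cd24a in monocytes on OP9 were 2.83-fold apart (39.2 and 111 CPM). The NAD hydrolase gene Cd38 had 7.90 and 3.94 CPM in monocytes on OP9 and 20.7 and 7.38 CPM on OP9-DLL1 (log2 fold change 1.14 ± 0.51, adjusted p = 0.23). Cd6, a scavenger-type receptor known from T cells, gave 10 and 5 reads in cMoPs on OP9 and 110 and 75 reads on OP9-DLL1, and yet did not pass (log2 3.64 ± 1.40, adjusted p = 0.44). Only those OP9-DLL1 cMoP libraries reached 1 CPM, so Cd6 passed the filter on low values through them alone. In monocytes its reads were 2 and 8 on OP9 and 1 and 33 on OP9-DLL1, a spread between replicates of 21.1-fold. A list of 7 measured partner genes of CD47 and CD200 held receptors, relatives of the CD47 receptor and a secreted ligand of CD47. Of these, 1 fell in monocytes, the inhibitory receptor gene Cd200r1 (162 ± 4.65 to 94.6 ± 8.77 CPM, log2 -0.78 ± 0.16, adjusted p = 0.027). None of them passed in cMoPs (an unadjusted p was under 0.05 for 3 higher and 1 lower).

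In cMoPs, then, Cd244a alone of the 43 genes passed for the ligand, 1 higher (2.33%) and 0 lower, where 0.464% of all genes were called higher and 0.307% lower. Without adjustment, a p under 0.05 was found for 8 higher and 5 lower, and voom on the recovered reads also called 1 higher and 0 lower. The authors' deposited table called 4 of the 43 in cMoPs (Cd244a, Cd300a and Cd300lf higher, Cd180 lower) and 6 in monocytes (Cd244a, Cd40, Cd82, Cd300a and Cd302 higher, Cd63 lower). The share of all genes called in the authors' table was not computed, so these counts have no background to set them against.

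A test of whether the 2 cell types differed in their response to the ligand called 0 of the 43 genes, with 0.0299% of all genes called higher and 0.0224% called lower. At an unadjusted p under 0.05, 3 were higher in cMoPs and 7 lower, and voom on the recovered reads also called 0. The smallest adjusted p-values beside that of Cd300e were those of Cd63 (0.72 ± 0.21, adjusted p = 0.32), Cd82 (-0.77 ± 0.23, 0.36), Cd37 (0.69 ± 0.21, 0.36) and Cd300ld (-0.79 ± 0.25, 0.36), on the log2 scale. Calls in monocytes that were not called in cMoPs are therefore not shown to differ between the cell types. Without OP9 monocyte replicate 2 the same test called 11 of the 43, namely Cd52, Cd68, Cd63 and Cd300lf higher in cMoPs and Cd244a, Cd44, Cd180, Cd69, Cd9, Cd24a and Cd300e lower, while 595 and 529 of all genes were called higher and lower.

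**Figure D3:**
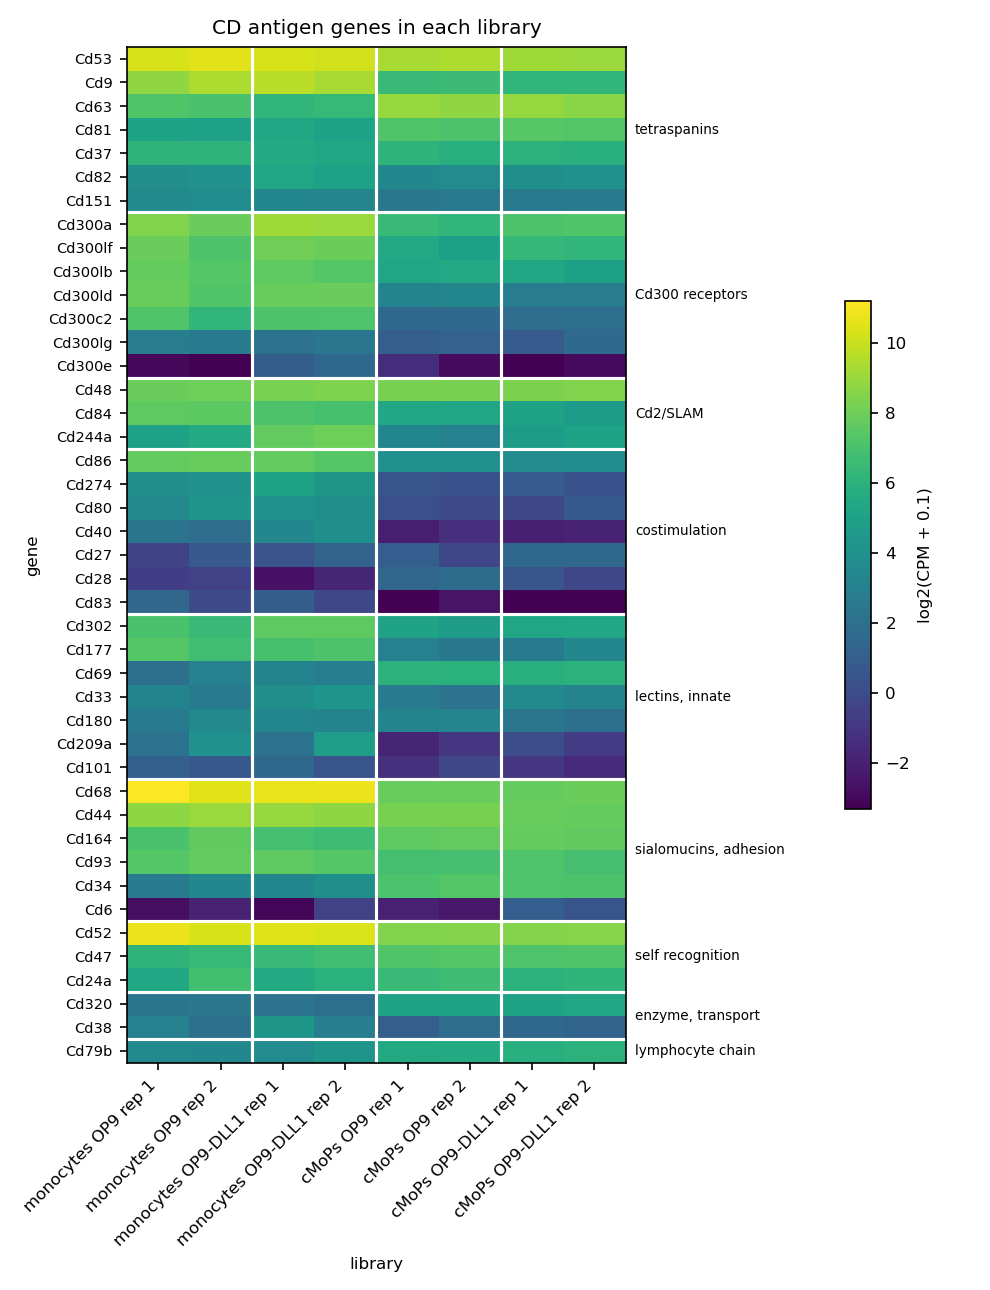
Log2(CPM + 0.1) of the 43 genes (rows, grouped by role) in the 8 libraries (columns, in pairs by group), with the colour scale at the right. Columns 1 to 4 are monocytes and 5 to 8 cMoPs, and most rows are brighter in monocytes.

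Most of these genes differed between the cell types. Monocytes had more RNA of the CD300 receptors, of the B7 molecules Cd80, Cd86 and Cd274 and of Cd68, Cd52 and Cd9, and cMoPs had more of Cd34, Cd69, Cd320, Cd81, Cd79b and Cd63. On OP9, 33 of 43 genes passed, 9 higher in cMoPs (20.9%) and 24 lower (55.8%), where 28.8% of all genes were called higher and 27.7% lower. On OP9-DLL1, 38 passed, 10 higher (23.3%) and 28 lower (65.1%), where 28.2% of all genes were called higher and 29.2% lower. The share lower in cMoPs was thus about 2 times the background and the share higher was below it. The median log2 fold change was -1.10 on OP9 and -1.19 on OP9-DLL1 for these genes, and 0.01 and -0.01 for all genes. In 24 genes (55.8%) all 4 monocyte libraries were above all 4 cMoP libraries, as in 29.6% of all genes, and in 8 genes (18.6%) the order was the reverse, as in 31.1% of all genes. The summed level of the 43 genes was 8138 to 9194 CPM in monocytes and 3677 to 3803 CPM in cMoPs. These 2 comparisons rest on separate libraries, but each shares its libraries with the comparisons for the ligand.

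Per kb of exon, Cd68, Cd52 and Cd53 had the highest levels of the 43 in monocytes (1523, 1290 and 796 CPM per kb on OP9), and Cd53, Cd52 and Cd48 in cMoPs (370, 304 and 251 CPM per kb on OP9). Cd68 had 1915 ± 607 CPM in monocytes and 226 ± 5.26 CPM in cMoPs, both on OP9 (log2 -3.05 ± 0.18, adjusted p = 2.3e-06). Cd52 had 1532 ± 351 and 360.5 ± 11.9 CPM (-2.07 ± 0.15), and Cd53 1386 ± 138 and 644 ± 35.6 CPM (-1.10 ± 0.11). On OP9-DLL1 the differences of these 3 genes were -2.88, -1.89 and -1.19. Cd44 was lower in cMoPs by smaller amounts, -0.68 ± 0.13 on OP9 and -1.06 ± 0.13 on OP9-DLL1, and so was Cd93 (-0.64 ± 0.15 and -0.42 ± 0.15).

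All 7 CD300 genes were lower in cMoPs on OP9-DLL1 and 6 on OP9, with log2 fold changes called between -5.18 for Cd300c2 and -1.67 for Cd300lg on OP9. Cd300c2 had 151 and 75.2 CPM in monocytes and 2.90 and 2.96 CPM in cMoPs, both on OP9. Cd300ld had 226 and 155 CPM against 9.40 and 9.91 CPM (log2 -4.27 ± 0.18), and the difference was -5.07 ± 0.18 on OP9-DLL1. Cd300lb (-2.22 and -2.36), Cd300lf (-2.35 and -1.70) and Cd300a (-1.81 and -1.87) had smaller differences. Cd300e was the exception on OP9, with 20 reads in cMoPs and 1 in monocytes (ratio 16.1, interval 2.57 to 665) and no call, and on OP9-DLL1 it was lower in cMoPs, with 2 against 241 reads (140 times, interval 38.3 to 1160). Among the 11 adaptor and phosphatase genes 10 were lower in cMoPs on OP9 and 10 on OP9-DLL1, and 0 were higher. The activating adaptor genes Fcer1g (3124 ± 720 and 752 ± 12.2 CPM, log2 -2.04 ± 0.15) and Tyrobp (2793 ± 790 and 718 ± 77.8 CPM, log2 -1.93 ± 0.18) were 2 of them.

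Costimulation genes were lower in cMoPs in 5 cases of 7 and higher in 1, on either stroma. Cd86 had 210 and 226 CPM in monocytes and 15.6 and 15.3 CPM in cMoPs, both on OP9 (log2 -3.82 ± 0.14), Cd80 11.1 and 18.3 against 1.07 and 0.949 CPM (-3.81 ± 0.38), and Cd274 14.6 and 17.1 against 1.27 and 1.17 CPM (-3.69 ± 0.30). On OP9-DLL1 these were -3.78, -3.77 and -4.27. Cd40 in cMoPs stood at 0.136 to 0.292 CPM in all 4 libraries (log2 -4.29 ± 0.48 on OP9 and -6.25 ± 0.48 on OP9-DLL1). Cd83 gave 0 and 4 reads in cMoPs on OP9 and 0 in both libraries on OP9-DLL1, where it was at least 51.0-fold lower than in monocytes (floor of 3 counts over the group). The costimulation gene higher in cMoPs was Cd28, at 2.63 and 3.38 CPM on OP9 against 0.554 and 0.632 CPM (log2 2.31 ± 0.64, adjusted p = 0.013). Cd27 was not called. B7 and TNF family partners went the same way, with 7 of 10 lower on OP9 and 8 on OP9-DLL1 and 0 higher.

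**Figure D4:**
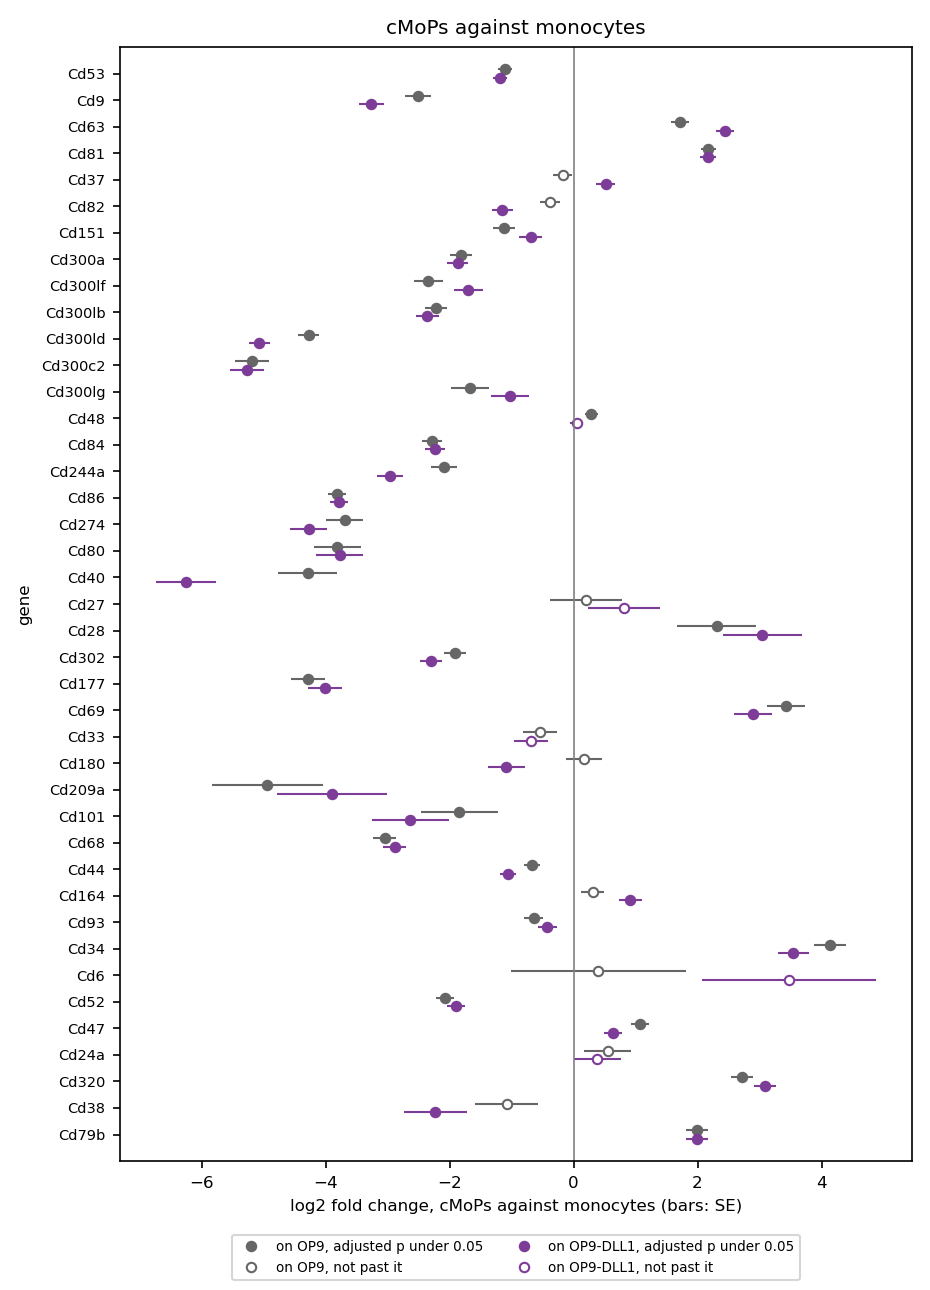
Log2 fold change of cMoPs against monocytes (x axis, bars are SE) for 41 of the genes, in grey on OP9 and purple on OP9-DLL1, with filled points where the adjusted p is under 0.05. Cd300e and Cd83 are not drawn because groups with 0 or few reads leave their fitted values uncertain. Most points lie left of 0, and Cd34, Cd69, Cd320, Cd81, Cd79b, Cd63 and Cd47 lie right of it on both stromas.

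Tetraspanins divided by cell type. Cd63 had 442 to 502 CPM in cMoPs on OP9 and 133 to 154 CPM in monocytes (log2 1.72 ± 0.15), and 2.44 ± 0.15 was the difference on OP9-DLL1. Cd81 stood at 156 and 144 CPM in cMoPs and 34.5 and 31.7 CPM in monocytes (2.18 ± 0.13). Cd9 went the other way, with 92.8 and 98.2 CPM in cMoPs and 436 and 677 CPM in monocytes on OP9 (-2.51 ± 0.20, and -3.26 ± 0.20 on OP9-DLL1). So did Cd53, whose values are given above, and Cd151 (-1.12 ± 0.18 on OP9 and -0.69 ± 0.18 on OP9-DLL1). Cd37 and Cd82 were not called on OP9 (-0.17 and -0.38), and on OP9-DLL1 Cd37 was higher in cMoPs (0.52 ± 0.15, adjusted p = 0.016) and Cd82 lower (-1.15 ± 0.17, adjusted p = 0.00032). The summed level of the 6 stromal genes was 2.40 to 5.85 CPM in cMoPs and 6.24 to 22.9 CPM in monocytes, and the part of stroma in the levels of Cd63, Cd81 and Cd9 was not tested.

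Among the remaining genes, Cd34 had 138 and 160 CPM in cMoPs on OP9 and 6.58 and 10.7 CPM in monocytes (log2 4.14 ± 0.25, and 3.54 ± 0.25 on OP9-DLL1), the largest of the differences called higher in cMoPs on either stroma. Cd69 followed, with 63.9 and 61.2 CPM against 3.92 and 8.52 CPM (3.43 ± 0.31), and then Cd320, the receptor for transcobalamin-bound vitamin B12, with 32.4 and 34.6 CPM against 4.83 and 5.30 CPM (2.72 ± 0.18). Cd79b, a signalling chain of the B cell receptor, was at 44.3 and 47.0 CPM against 12.1 and 10.8 CPM (1.997 ± 0.18), and the other 5 B cell genes listed were not analysed here. Cd47 was higher in cMoPs (1.08 ± 0.14 and 0.64 ± 0.14), while its receptor gene Sirpa was lower (-1.57 ± 0.17 on OP9). All 7 measured partner genes of CD47 and CD200, Sirpa among them, were lower in cMoPs on both stromas. Genes of the Sirp family are alike and may share reads. Cd48 was higher on OP9 (0.28 ± 0.11, adjusted p = 0.046) and not called on OP9-DLL1 (0.05 ± 0.11), and Cd164 was not called on OP9 (0.31 ± 0.19) and higher on OP9-DLL1 (0.92 ± 0.19).

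Lower in cMoPs were the lectins and innate receptors Cd209a (-4.94 ± 0.89 and -3.90 ± 0.89), Cd177 (-4.28 ± 0.27 and -4.01 ± 0.27), Cd302 (-1.92 ± 0.18 and -2.30 ± 0.18) and Cd101 (-1.84 ± 0.62 and -2.63 ± 0.62), on OP9 and OP9-DLL1 in turn. Of the 6 neutrophil genes 3 were also lower in cMoPs on each stroma and 0 higher (Mmp8 and Retnlg on both, Ngp on OP9, S100a9 on OP9-DLL1), and the part of neutrophils in the level of Cd177 was not tested. The SLAM genes Cd84 (-2.28 ± 0.16 and -2.23 ± 0.16) and Cd244a (-2.09 ± 0.21 and -2.96 ± 0.21) were lower as well, as were 3 of 5 other SLAM receptor genes on each stroma. Cd244a did not separate the cell types completely, since 1 cMoP library on OP9-DLL1 (33.8 CPM) was above 1 monocyte library on OP9 (32.0 CPM). Cd38 (-1.08 on OP9, not called, and -2.23 ± 0.51 on OP9-DLL1) and Cd180 (0.17 and -1.08 ± 0.29) were called lower on OP9-DLL1. Cd33, Cd24a, Cd27 and Cd6 were not called on either stroma. Of the 33 calls on OP9 28, and of the 38 on OP9-DLL1 31, held in every alternative setting. On OP9 the calls of Cd28, Cd48, Cd101 and Cd83 ended without 1 library, with adjusted p-values up to 0.089, 0.18, 0.185 and 0.062, and that of Cd209a with voom. On OP9-DLL1 those of Cd37, Cd93, Cd151, Cd300lg, Cd180, Cd101 and Cd300e ended without 1 library, where the adjusted p ranged up to 0.265 for Cd93. These were OP9 monocyte replicate 1 (Cd48, Cd101 and Cd83), OP9 cMoP replicate 1 (Cd48 and Cd101) and replicate 2 (Cd28 and Cd48), OP9-DLL1 monocyte replicate 1 (Cd93, Cd151, Cd180 and Cd101) and replicate 2 (Cd37, Cd93, Cd300lg and Cd300e), and OP9-DLL1 cMoP replicate 1 (Cd37 and Cd300lg) and replicate 2 (Cd93, Cd151 and Cd180). Centring the libraries on their medians moved every difference on OP9-DLL1 up by 0.1055 on the log2 scale, which turned no sign and left Cd93 at -0.32 (adjusted p = 0.0933). The authors' deposited table called 32 of the 33 on OP9 and all 38 on OP9-DLL1. It called 40 on OP9-DLL1, adding Cd33 lower (adjusted p = 0.014) and Cd6 higher in cMoPs (adjusted p = 0.0083). In the main setting these had adjusted p-values of 0.057 and 0.059. Both genes passed with voom, with a pseudocount of 1 CPM and with only the libraries compared, and neither passed without the mean-variance trend or with median centring.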

How the data were processed

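RNA of 8 libraries was analysed from 1 deposited table of log2 CPM per gene. Per the submitters' processing notes, the build was mm10, alignment and counting tools included featureCounts 2.0.3, STAR 2.7.9a and Salmon 1.5.2, and limma, edgeR, Subread and bcl2fastq are named too. The order and settings of these tools are not stated in the labels. A SMARTer Ultra Low kit was used per the labels' protocols. Strand is not marked by it, and antisense partners cannot be separated. The authors' deposited p-values for 4 comparisons and log2 fold changes, turned so that OP9-DLL1 minus OP9 is positive, are quoted only where named.

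Of 13430 table entries 42 repeated a gene identifier and were dropped. The deposited log2 values have the form log2 of reads plus 0.5 over an effective library size, and whole reads were recovered from every value (tolerance 0.001). CPM here are those reads over the effective library size. limma-trend (limma 3.58.1, R 4.3.3) was fitted on the deposited log2 values as 4 group means (4 residual degrees of freedom). It covered the 13374 genes that reached 1 CPM in 2 or more of the 8 libraries, leaving out 14. Tests were two-sided, with Benjamini-Hochberg adjustment over all genes and a threshold of 0.05. Fitted values were checked on simulated data.

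Within each group, a chi-square test of replicate reads gave 24 to 157.2 per degree of freedom. Replicates of a group thus differed by more than counting error. The test did not compare libraries of different groups, and it cannot tell repeated preparations of the same RNA from separate cultures. Reads carry no molecular identifiers, so intervals and the floor of 3 counts describe counting error alone. Positions are from GENCODE M21 on GRCm38 and upstream sequences from RefSeq on GRCm38.p6. Named are all of the genes that passed for the ligand, the 10 highest and 10 lowest passing by cell type with 5 CPM or more, and 22 chosen whatever their result, and the others were added to account for all. In partner lists up to 3 passing genes are named by adjusted p, and Fcer1g, Tyrobp and Sirpa were chosen after their values were seen. The 43 genes and all lists were chosen with earlier results of these data known. Alternatives were voom on recovered reads, median centring, no filter, a pseudocount of 1 CPM, no mean-variance trend, only the libraries compared, the replicate number as a block, and each library left out. They were run for the 43 genes and not for the partner genes, 1 of which is not reported here.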

Additional observations from a re-analysis of the deposited data

How the results depend on the processing

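Over all genes, 450 were called higher and 405 lower in monocytes for OP9-DLL1. Without the mean-variance trend these were 151 and 97, and with only the compared libraries fitted 202 and 104. Of the 43 genes, 8 passed in monocytes for OP9-DLL1, 3 without the mean-variance trend, 5 with only the compared libraries fitted, and 8 to 10 in the other settings that kept every library. Leaving out 1 library at a time gave 1 to 14 calls there, fewest without OP9-DLL1 monocyte replicate 1. In cMoPs the calls over all genes were 62 higher and 41 lower. They were 20 and 17 without the trend, and 208 and 107 with only the compared libraries. Of the 43 genes 1 passed there, against 0 without the trend and 7 with only the compared libraries. For the difference of responses the range with 1 library left out was 0 to 11, and only leaving out OP9 monocyte replicate 2 gave any call. Between cell types the counts were 30 to 37 on OP9 and 34 to 40 on OP9-DLL1 over all settings. The cause was not tested, beyond there being fewer samples in these fits. With the replicate number as a block the pairing gave 10 calls in monocytes, 3 in cMoPs, 0 for the difference, 33 on OP9 and 39 on OP9-DLL1. Same-numbered libraries of different groups correlated by 0.0227 to 0.0891 in their deviations. These correlations were weak and all positive, and they cannot tell whether such libraries share a mouse, a culture or a batch. No log2 fold change of a called gene turned its sign. Over single genes, comparisons and alternatives, values called in the main setting kept the call in 829 cases and lost it in 51, and values not called stayed so in 1565 cases and gained a call in 49. With 2 libraries per group, depth limits only genes with few reads, such as Cd300e, Cd83 and Cd6.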
